A study of Homo sapiens with 16 samples.

Results

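The spliceosome removes introns from newly made RNA. It is built from small nuclear ribonucleoproteins (snRNPs), which are particles of a small nuclear RNA and its proteins. A ring of Sm proteins surrounds the RNA of each of the U1, U2, U4 and U5 particles. The U1 snRNP recognises the 5' splice site, while SF1 and the U2AF heterodimer recognise the branch point and the 3' splice site before the U2 snRNP takes over the branch point. U5 then enters together with U4 and U6 as the tri-snRNP, the Prp19 complex stabilises the activated catalytic centre, and RNA helicases drive each remodelling step and the final release of the spliced RNA.

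The data describe the genes of these core proteins in HL60, a cell line from a human acute promyelocytic leukaemia, after 5 h in 50 nM SY-351 or in DMSO, its solvent. SY-351 inhibits CDK7, a kinase of the general transcription factor TFIIH, and the question of the study was the part of CDK7 in transcriptional regulation, splicing and termination. All cells were wild-type HL60, and polyadenylated RNA was sequenced from 4 numbered replicates per group, each listed with 2 technical repeats. Because nothing in the labels says that replicates came from separate cultures, p-values measure the spread between these libraries, which may be technical. The members were chosen by name: 45 genes, grouped by the particle or step their proteins belong to. Of these, 41 had a row among the 18093 rows of the count table. U2AF1, PRPF8, PRPF31 and DHX16 had none there, and of these 4 genes U2AF1 and DHX16 had entries in the splicing table.

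Libraries held 43.3 to 77.9 M assigned counts with SY-351 and 103.7 to 124.2 M with DMSO. Levels are given in CPM, a gene's count scaled to the library's total, over an interval that spans introns as well as exons. At these totals 3 counts equal 0.0241 to 0.0693 CPM. The promyelocyte gene MPO had 30000 to 33600 CPM with SY-351 and 19000 to 31600 CPM with DMSO. CTSG, another promyelocyte marker, had 606 to 681 CPM with SY-351 and 55.4, 12.7, 339 and 339 CPM in DMSO 1 to 4. CD33 had 76.8 to 81.7 CPM with SY-351 and 3.73, 2.04, 100 and 104 CPM in DMSO 1 to 4. The erythroid gene HBB reached at most 0.0231 CPM with SY-351 and 0.0483 CPM with DMSO. CD79A, the highest of the lymphoid and erythroid markers, had 15.5 to 16.3 CPM with SY-351 and 6.4 to 8.26 CPM with DMSO. Markers of the promyelocyte took 3.08% to 3.42% of the counts with SY-351 and 2.74%, 3.16%, 1.99% and 1.95% in DMSO 1 to 4. Of them 0 of 3 tested were called with 8 libraries (all genes 13.6% lower and 2.91% higher). Without DMSO 1 and 2, 2 of them were higher (all genes 21.9%). Lymphoid and erythroid markers took 0.00202% to 0.00221% with SY-351 and 0.000695% to 0.00122% with DMSO. Of 5 tested, 0 were called with 8 libraries, and 3 were higher without DMSO 1 and 2 (all genes 21.9%). The part of these markers in the results below was not tested. In bulk RNA, fewer cells of a type and less RNA per cell cannot be told apart.

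The 4 DMSO libraries fell into 2 pairs. DMSO 1 correlated with DMSO 2 at r = 0.983 and DMSO 3 with DMSO 4 at r = 0.987 over log CPM of all genes tested, whereas r between the pairs was 0.762 to 0.794. The 4 SY-351 libraries correlated with DMSO 3 and 4 at r = 0.937 to 0.954. For the members the split was wide: 26 of 41 had less than 10% of their DMSO 3 and 4 level in DMSO 1 and 2, as did 20.3% of all genes tested, and 7 of 41 had a higher level there, as did 27.3% of all genes tested. SF3B6, a protein that contacts the branch point, had 0.112 and 0.00964 CPM in DMSO 1 and 2, of which DMSO 2 was under 3 counts, and 86.6 and 85.8 CPM in DMSO 3 and 4. SF3A2, another U2 protein, had 1319 and 1437 CPM in DMSO 1 and 2 and 285 and 272 CPM in DMSO 3 and 4. Members called without DMSO 1 and 2 are therefore given with their values over all 8 libraries as well. Of the 41 members, 17 had log2 folds of opposite sign in these 2 fits, and 25 had opposite signs against DMSO 3 and 4 and against DMSO 1 and 2 alone.

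GC content moved with that split. Each transcript was described by the GC content of its richest window of 600 nt. Across the 41 members this value correlated with the ratio of DMSO 1 and 2 to DMSO 3 and 4 at a Spearman rho of 0.71, as a description across genes that share the same libraries. Over 14854 genes tested the value was 0.65. The 26 members below 10% had a median GC content of 52.6% in that window and the other 15 a median of 64.0%. Against the fold between SY-351 and DMSO 3 and 4, the members' rho was 0.03. The part of GC content in the results with all 8 libraries was not tested.

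**Figure D1:**
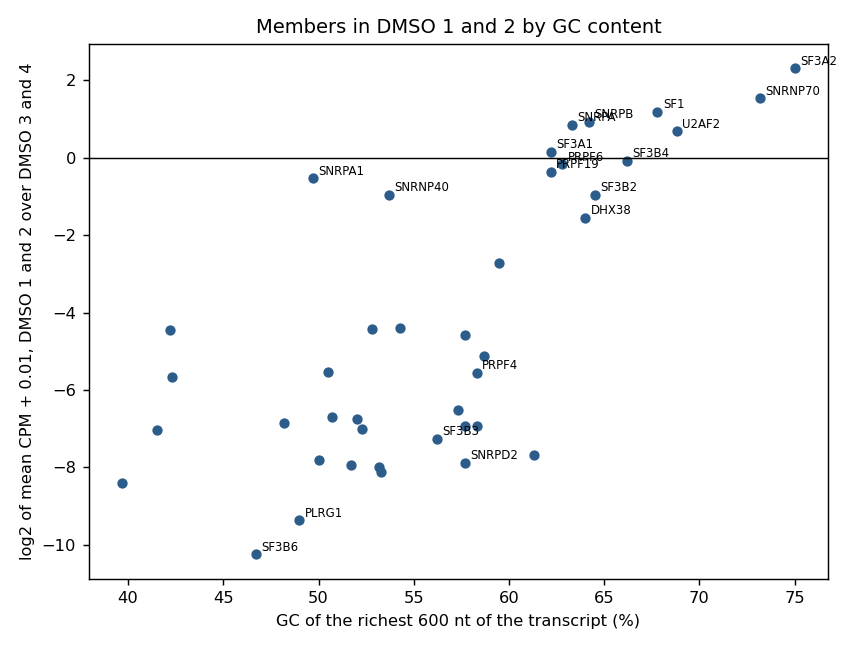
Each point is 1 of 41 members. The x axis is the GC content (%) of the richest 600 nt window of its transcript, and the y axis is the log2 ratio of mean CPM + 0.01 in DMSO 1 and 2 over DMSO 3 and 4. SF3A2 and SNRNP70, with the highest GC content, lie above 0, and SF3B6 lies lowest.

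**Figure D2:**
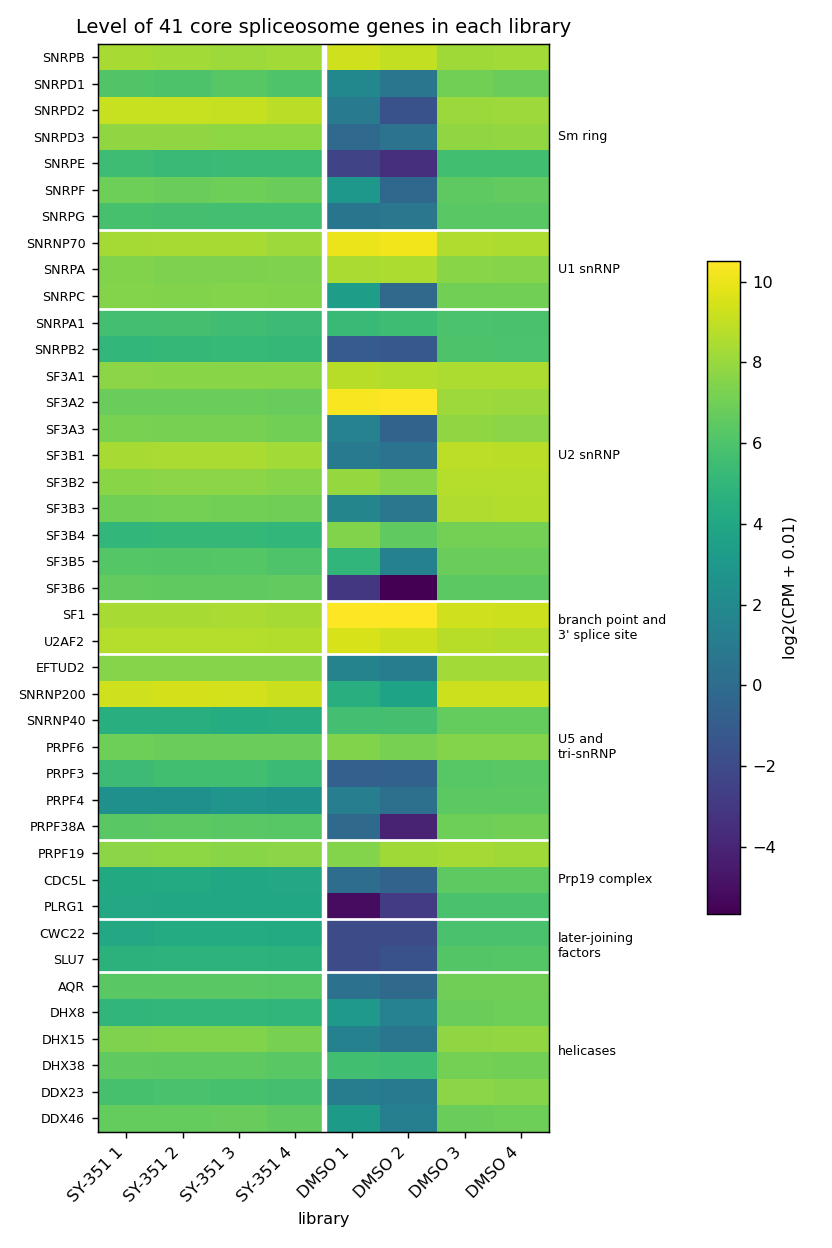
Colour gives log2(CPM + 0.01) of 41 members (rows, by class) in each library (columns, SY-351 1 to 4, then DMSO 1 to 4). The SY-351 libraries resemble each other in every row, and DMSO 1 and 2 differ from DMSO 3 and 4 in most rows.

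With all 8 libraries, 3 of 41 members were lower with SY-351 and 0 were higher (edgeR's quasi-likelihood test, Benjamini-Hochberg adjusted p below 0.05 over 15472 genes). Among all genes tested, 13.6% were called lower and 2.91% higher, so neither share of members was above the background. The 3 were SF3A2 and SF3B4 of the U2 snRNP and SNRNP40 of the U5 snRNP. At an unadjusted p below 0.05 there were 8 members lower and 0 higher. The share of all genes at that cut is not given here, so these counts have no background beside them. DESeq2 called 8 lower (19.5% of members) and 0 higher. Over all genes it called 3484 lower and 1064 higher, of 15545 with an adjusted p. The count of 3 changed to 9 without DMSO 3 (22% of members, 22.4% of all genes). It was 1 without SY-351 1 (2.44% of members, 2.99% of all genes) and 1 without SY-351 3 (2.44% and 3.09%). In these fits the members' share moved with that of all genes. SEs of the log2 folds reached 1.68 in this fit. The median log2 fold of the 41 members was -0.09, against 0 for all genes tested.

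SNRNP40 is the WD-repeat protein of the U5 snRNP. It had 21.7, 22.7, 20.3 and 21.2 CPM with SY-351, against 51.3, 53.3, 102.5 and 101.9 CPM with DMSO. Every SY-351 library lay below every DMSO library, both pairs included. The log2 fold was -1.90 ± 0.23 (SE, adjusted p = 0.00324, edgeR), and -1.82 ± 0.15 (adjusted p = 8.47e-31) without DMSO 1 and 2. The call held without any one of the 8 libraries, with adjusted p between 0.00233 and 0.0325.

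SF3B4 is the SF3B subunit that binds pre-mRNA upstream of the branch point. It had 32.4, 34.9, 33.9 and 33.0 CPM with SY-351, against 170, 92.5, 138 and 138 CPM with DMSO. The groups did not overlap. Its log2 fold was -2.22 ± 0.38 (adjusted p = 0.00867, edgeR), and -1.62 ± 0.15 (adjusted p = 2.45e-24) without DMSO 1 and 2. Without SY-351 1 the adjusted p with the remaining 7 libraries was 0.0505, and without SY-351 3 it was 0.0507.

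SF3A2, a subunit of the SF3A complex that helps assemble the mature U2 snRNP, had 113, 115, 116 and 108 CPM with SY-351. With DMSO it had 1319, 1437, 285 and 272 CPM. No SY-351 library reached any DMSO library, and DMSO 1 and 2 stood far above DMSO 3 and 4. The fitted log2 fold was -3.40 ± 0.89 (adjusted p = 0.0355, edgeR) with 8 libraries, and -0.87 ± 0.16 (adjusted p = 9.71e-08) without DMSO 1 and 2. Leaving out DMSO 1, DMSO 2 or any of the 4 SY-351 libraries ended the call with the others (adjusted p 0.0737 to 0.115).

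**Figure D3:**
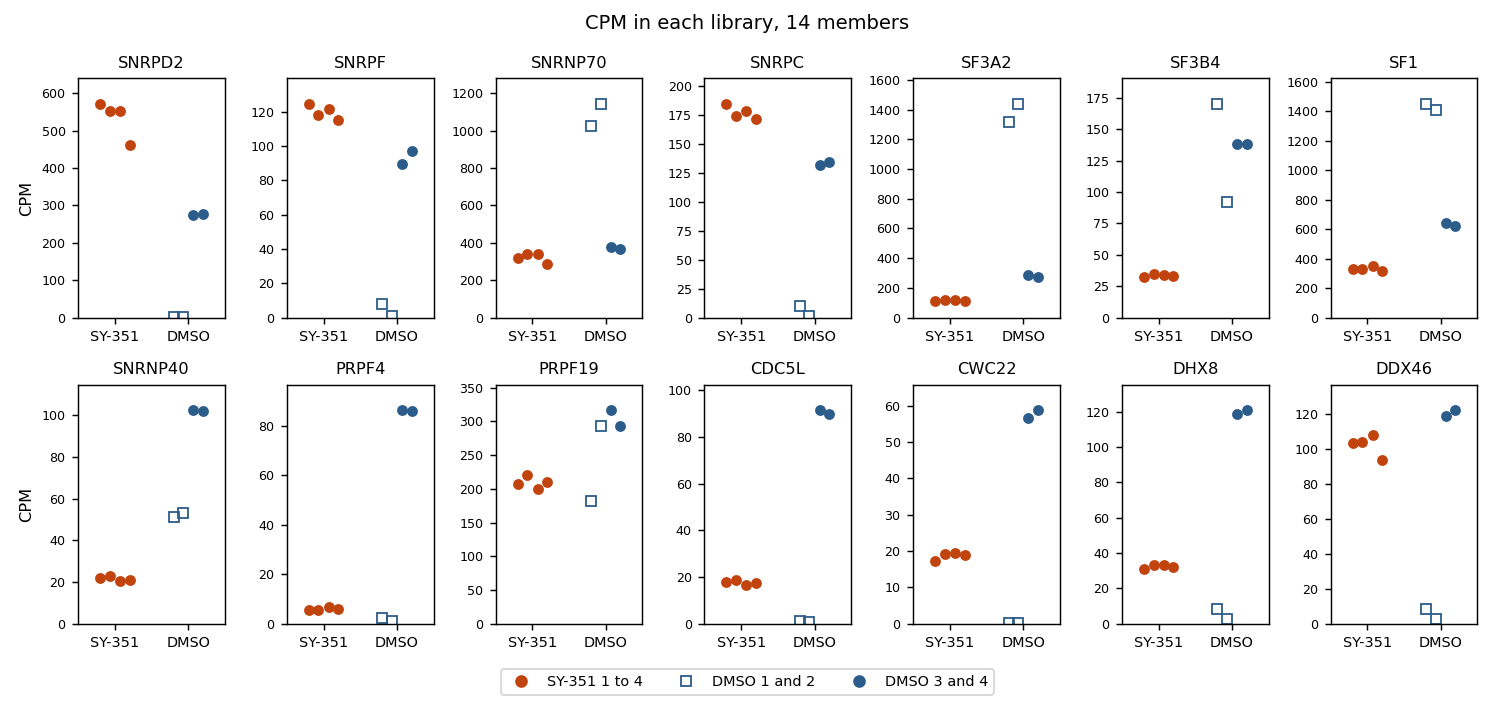
CPM (y axis, from 0) of 14 members in each library, with SY-351 at the left and DMSO at the right of each panel. Filled circles are SY-351 1 to 4 and DMSO 3 and 4, and open squares are DMSO 1 and 2. For SNRNP40, SF3B4 and SF3A2 all SY-351 points lie below all DMSO points.

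Without DMSO 1 and 2, 17 of 41 members were lower with SY-351 and 7 were higher (edgeR, adjusted p below 0.05 over 15811 genes). The background was 26.4% lower and 21.9% higher. The members' shares were 41.5% lower and 17.1% higher, and their median log2 fold was -0.22, against 0.01 for all genes tested. The 17 lower were SNRPD1 (Sm ring), SNRPB2, SF3A1, SF3A2, SF3B2, SF3B3 and SF3B4 (U2 snRNP), SF1 (branch point), SNRNP40, PRPF3 and PRPF4 (U5 and tri-snRNP), CDC5L and PLRG1 (Prp19 complex), CWC22 and SLU7 (later-joining factors), and DHX8 and DDX23 (helicases). The 7 higher were SNRPB, SNRPD2 and SNRPF (Sm ring), SNRPC (U1 snRNP), SF3B6 (U2 snRNP), U2AF2 (3' splice site) and SNRNP200, the U5 helicase that unwinds U4 from U6.

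Scaling matters for this comparison. In plain CPM the log2 fold of the median gene was -0.45, and TMM scaling, used for the calls, removes that shift. The log2 folds above are therefore relative to the bulk of genes, and with plain total scaling each member's log2 fold was lower by an amount between -0.44 and -0.42. On that scale 33 members were lower and 4 higher, against a background of 43.3% lower and 13.1% higher. All 17 lower calls stood on both scales, as did 4 of the 7 higher calls (SNRPD2, SNRPF, SNRPC and SF3B6). SNRPB, U2AF2 and SNRNP200 were not called on the total scale, and a further 16 members, not called under TMM, were lower. These 16 were SNRPE, SNRPG, SNRNP70, SNRPA, SNRPA1, SF3A3, SF3B1, SF3B5, EFTUD2, PRPF6, PRPF38A, PRPF19, AQR, DHX15, DHX38 and DDX46. DMSO 3 and 4 had almost the same plain CPM, with a ratio of median 1.01 over the members and never below 0.923, but TMM factors of 1.42 and 1.06. Leaving out DMSO 3 gave 28 lower and 6 higher, where 33.8% of all genes were lower and 25.4% higher. Leaving out DMSO 4 gave 16 lower and 15 higher, where 24.8% of all genes were lower and 29.5% higher. Without SY-351 1 there were 14 lower and 4 higher (all genes 23.9% and 19.0%), and without SY-351 2 there were 15 lower and 4 higher (all genes 24.6% and 18.2%).

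Across 8 alternatives to that fit (total scaling, DESeq2 and leaving out each of the 6 libraries), 13 members were lower in all 8 and 4 were higher in all 8. The 13 were SF3A2, SF3B2, SF3B3, SF3B4, SF1, SNRNP40, PRPF4, CDC5L, PLRG1, CWC22, SLU7, DHX8 and DDX23. The 4 were SNRPD2, SNRPF, SNRPC and SF3B6. No share of all genes called the same way in all 8 is given here. Whether these counts of members differ from the background was therefore not tested. In plain CPM, 34 of 41 members had all 4 SY-351 libraries below DMSO 3 and 4, against a background of 47.2% of genes tested, and 4 had all of them above, against 16.2%. Over all 8 libraries, 8 members had every SY-351 library below every DMSO library and 4 above, against backgrounds of 21.4% and 11.2%.

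**Figure D4:**
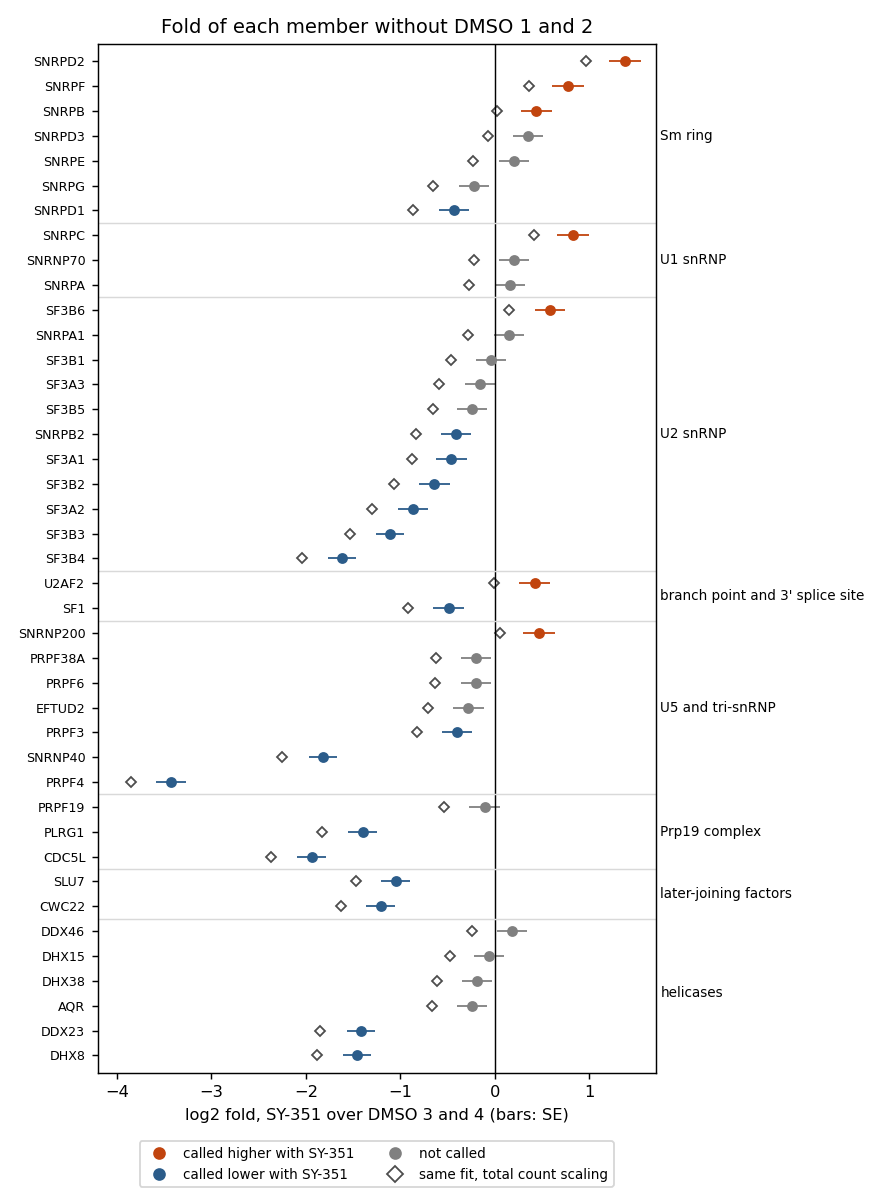
Log2 fold of SY-351 over DMSO 3 and 4 (x axis) for 41 members by class, largest first within a class. Filled circles are the TMM-scaled edgeR fit with SE bars, coloured by call, and open diamonds are the same fit with total count scaling. PRPF4 is lowest at -3.43 and SNRPD2 highest at 1.38, and every diamond lies left of its circle by a near-constant amount.

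The Sm ring was the class with the most members higher. Without DMSO 1 and 2, 3 of 7 were higher and 1 lower (all genes 21.9% and 26.4%), with a median log2 fold of 0.35. This lean depended on the scaling. With total count scaling 2 were higher and 3 lower, with a median of -0.07 (all genes 13.1% higher and 43.3% lower). These proteins are shared by U1, U2, U4 and U5. SNRPD2 had 571, 554, 552 and 461 CPM with SY-351, against 1.97, 0.328, 273 and 277 CPM with DMSO. Each SY-351 library lay above each DMSO library, and DMSO 1 and 2 were near 0. Its log2 fold was 1.38 ± 0.17 (adjusted p = 1.47e-14, edgeR) without DMSO 1 and 2, and 2.35 ± 1.46 (adjusted p = 0.306) with them.

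SNRPF, another ring member, had 124.5, 118, 122 and 115 CPM with SY-351, against 7.63, 0.830, 89.8 and 97.3 CPM with DMSO. Every SY-351 library was above every DMSO library. SNRPF had a log2 fold of 0.77 ± 0.17 (adjusted p = 1.20e-05, edgeR) without DMSO 1 and 2, and 1.62 ± 0.97 (adjusted p = 0.286) with them. SNRPB, whose call was lost under total scaling and without DMSO 3 or SY-351 1, 2 or 4, had a log2 fold of 0.44 ± 0.16 (adjusted p = 0.0152) without DMSO 1 and 2 and -0.90 (adjusted p = 0.305) with 8 libraries. SNRPD1 was the member of the ring that was lower, at -0.43 ± 0.16 (adjusted p = 0.0149) against 0.48 (adjusted p = 0.763) with 8 libraries, and it was not called without SY-351 1 or without SY-351 2. SNRPD3, SNRPE and SNRPG were not called, with log2 folds of 0.35, 0.20 and -0.22. With total count scaling SNRPE (-0.23, adjusted p = 0.0118, edgeR) and SNRPG (-0.65, adjusted p = 3.3e-06) were lower, and SNRPD3 was not called. Read assignment is uncertain for part of this class and for SNRPC. GENCODE names 20 pseudogenes of SNRPG, 18 of SNRPC, 9 of SNRPE, 4 of SNRPF and 2 of SNRPD2, so reads of near-identical copies could be split or misplaced for these genes.

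In the U1 snRNP, SNRPC was higher and SNRNP70 and SNRPA were not called without DMSO 1 and 2 (all genes 21.9% higher). SNRPC, the U1-C protein that stabilises pairing with the 5' splice site, had 185, 174, 178 and 172 CPM with SY-351, against 10.2, 0.926, 132 and 135 CPM with DMSO. The groups did not overlap. Its log2 fold was 0.83 ± 0.17 (adjusted p = 1.96e-06, edgeR) without DMSO 1 and 2, and 1.69 ± 1.00 (adjusted p = 0.285) with them. SNRNP70, the U1-70K protein, had 316, 339, 340.5 and 285 CPM with SY-351, against 1025, 1143, 379 and 367 CPM with DMSO. The SY-351 libraries were all below the DMSO libraries in plain CPM, with DMSO 1 and 2 far above the rest. Its log2 fold was -1.64 ± 0.69 (adjusted p = 0.143) with 8 libraries and 0.20 ± 0.16 (adjusted p = 0.32) without DMSO 1 and 2.

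The U2 snRNP had 6 of 11 members lower and 1 higher without DMSO 1 and 2 (all genes 26.4% and 21.9%). Its median log2 fold was -0.41. Beside SF3B4 and SF3A2, described above, SF3B3 had a log2 fold of -1.11 ± 0.15 (adjusted p = 3.55e-12) without DMSO 1 and 2, and -0.16 (adjusted p = 0.942) with 8 libraries. SF3B3, a large scaffold of the SF3B complex, had 134, 139, 134 and 125 CPM with SY-351, against 3.21, 1.78, 375 and 395 CPM with DMSO. The SY-351 libraries lay between the DMSO pairs, so that the sign of the fold depends on which pair serves as the control. SF3B2 had a log2 fold of -0.64 ± 0.16 (adjusted p = 0.000125) without DMSO 1 and 2, and -0.72 (adjusted p = 0.103) with 8 libraries. SF3A1 and SNRPB2 had log2 folds of -0.46 and -0.41 without DMSO 1 and 2 and of -1.21 (adjusted p = 0.0746) and 0.54 (adjusted p = 0.779) with 8 libraries, and these calls were lost without SY-351 3 and, for SNRPB2, also without SY-351 1 or 2. SF3B1 is the SF3B subunit around the branch-point adenosine and a frequent target of mutation in blood cancers. It was not called under TMM scaling, with a log2 fold of -0.04 ± 0.16 (adjusted p = 0.891, edgeR) without DMSO 1 and 2 and 0.93 (adjusted p = 0.663) with 8 libraries. Without DMSO 1 and 2 it was lower under total count scaling (-0.46, adjusted p = 4.64e-05, edgeR). Its log2 fold ran from -0.46 to 0.20 across the 8 alternatives to that fit. SF3B6 was higher, at 0.58 ± 0.16 (adjusted p = 0.00124), without DMSO 1 and 2, and had a log2 fold of 1.55 (adjusted p = 0.552) with 8 libraries.

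SF1 binds the branch point before U2 does. It had 333, 331, 348 and 317 CPM with SY-351, against 1448, 1405, 638 and 619 CPM with DMSO. Each SY-351 library was below each DMSO library. SF1 had a log2 fold of -0.49 ± 0.16 (adjusted p = 0.00484, edgeR) without DMSO 1 and 2, and -2.04 ± 0.63 (adjusted p = 0.0612) with them. U2AF2, which binds the polypyrimidine tract, had 413, 418, 422 and 399 CPM with SY-351, against 722, 609, 432 and 399 CPM with DMSO. Its SY-351 values overlapped DMSO 3 and 4, and its call as higher, at 0.42 ± 0.16 (adjusted p = 0.0232), was lost under total scaling and without any one SY-351 library. With 8 libraries its log2 fold was -0.73 (adjusted p = 0.359).

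PRPF4, a U4/U6 protein of the tri-snRNP, had the lowest fold of all members without DMSO 1 and 2, whereas SF3A2 had the lowest with 8 libraries. It had 5.37, 5.52, 6.87 and 6.10 CPM with SY-351, against 2.405, 1.21, 86.2 and 85.8 CPM with DMSO. The SY-351 libraries stood at 6.94% of the mean of DMSO 3 and 4 and above both DMSO 1 and DMSO 2, against which it was called higher (log2 fold 0.91). Its log2 fold was -3.43 ± 0.16 (adjusted p = 7.59e-103, edgeR) without DMSO 1 and 2, and -2.51 ± 1.06 (adjusted p = 0.144) with them. SNRNP200 had a log2 fold of 0.47 ± 0.17 (adjusted p = 0.0113, edgeR) without DMSO 1 and 2, and 1.37 (adjusted p = 0.357) with 8 libraries. Its SY-351 values overlapped DMSO 3 and 4 in plain CPM. The call was lost under total scaling and without SY-351 1 or SY-351 2. In all, 3 of 7 measured U5 and tri-snRNP members were lower and 1 was higher without DMSO 1 and 2 (all genes 26.4% and 21.9%). PRPF3, the partner of PRPF4 in that particle, had a log2 fold of -0.40 ± 0.16 (adjusted p = 0.0242), against 0.55 (adjusted p = 0.775) with 8 libraries, and was not called by DESeq2 or without DMSO 4 or SY-351 1, 3 or 4. EFTUD2, the GTPase of U5, PRPF6, which bridges the particles of the tri-snRNP, and PRPF38A, which enters before activation, had log2 folds of -0.28, -0.20 and -0.20 and were not called.

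The promoters of PRPF4 and SNRPD2 are shown because these members had the lowest and the highest fold without DMSO 1 and 2. Each sequence is the 250 bases upstream of a transcript start of the gene from RefSeq (GRCh38.p14). The windows are chr9:113275408-113275657, plus strand, for PRPF4 and chr19:45692317-45692566, minus strand, for SNRPD2. The PRPF4 transcript used for the counts starts at chr9:113275633, inside this window, so the window belongs to another start of the gene. Capitals mark matches, on either strand, to the CCAAT box (CCAAT), the TATA box (TATAAA), the ETS core (CCGGAAG) or the GC box (GGGCGG), none of which overlap here.
PRPF4: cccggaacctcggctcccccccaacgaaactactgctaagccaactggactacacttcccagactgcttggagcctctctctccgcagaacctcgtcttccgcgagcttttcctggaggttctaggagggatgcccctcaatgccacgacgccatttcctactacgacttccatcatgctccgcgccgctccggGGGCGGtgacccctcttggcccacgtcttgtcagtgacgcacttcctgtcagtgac
SNRPD2: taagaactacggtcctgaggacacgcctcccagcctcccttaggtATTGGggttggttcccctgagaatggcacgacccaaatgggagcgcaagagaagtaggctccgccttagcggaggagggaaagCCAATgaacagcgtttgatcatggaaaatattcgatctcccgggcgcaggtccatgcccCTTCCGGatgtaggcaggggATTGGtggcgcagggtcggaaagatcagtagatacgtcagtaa

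The PRPF4 window held 1 GC box and none of the other 3 motifs, and the SNRPD2 window held 3 CCAAT matches and 1 ETS core. Windows were matched for 42 members. CCGGAAG stood in 23 of them (54.8%), against 13.3% of 12713 tested genes with a window and 8.5% of all 35116 windows. It was in 8 of 14 matched members that were lower without DMSO 1 and 2, in 6 of 7 that were higher, and in 8 of 17 that were not called. TATAAA stood in 1 of 42 members, against 6.9% of tested genes. CCAAT stood in 35.7% of members and 34.3% of tested genes, and GGGCGG in 64.3% of members and 61.4% of tested genes. A match says only that these letters are in the window.

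In the Prp19 complex, CDC5L and PLRG1 were lower and PRPF19 was not called without DMSO 1 and 2 (all genes 26.4% lower). CDC5L, a scaffold of the complex, had 17.7, 18.5, 16.6 and 17.2 CPM with SY-351, against 1.05, 0.675, 91.4 and 89.7 CPM with DMSO. Its SY-351 libraries lay above DMSO 1 and 2 and far below DMSO 3 and 4. CDC5L had a log2 fold of -1.94 ± 0.15 (adjusted p = 3.72e-35, edgeR) without DMSO 1 and 2, and -1.0 ± 1.17 (adjusted p = 0.584) with them. PLRG1, its WD-repeat partner, had a log2 fold of -1.40 ± 0.15 (adjusted p = 5.51e-19) without DMSO 1 and 2, -0.43 (adjusted p = 0.866) with 8 libraries, and 6.90 against DMSO 1 and 2 alone. PRPF19, the ubiquitin ligase that names the complex, had 207, 220, 199.9 and 211 CPM with SY-351, against 181, 294, 316.5 and 294 CPM with DMSO. DMSO 1 lay below every SY-351 library and the other 3 DMSO libraries above every one. Its log2 fold was -0.11 ± 0.16 (adjusted p = 0.621) without DMSO 1 and 2, and -0.53 ± 0.33 (adjusted p = 0.303) with them.

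Both later-joining factors were lower without DMSO 1 and 2 (all genes 26.4% lower). CWC22, which brings the exon junction complex protein EIF4A3 to the spliceosome, had 17.2, 19.3, 19.3 and 18.9 CPM with SY-351, against 0.252, 0.241, 56.7 and 58.8 CPM with DMSO. The SY-351 libraries lay between the DMSO pairs. CWC22 had a log2 fold of -1.21 ± 0.15 (adjusted p = 2.27e-14, edgeR) without DMSO 1 and 2, and -0.25 ± 1.31 (adjusted p = 0.911) with them. SLU7, which acts in the choice of the 3' splice site, had a log2 fold of -1.05 ± 0.15 (adjusted p = 8.21e-11) without DMSO 1 and 2, -0.09 (adjusted p = 0.97) with 8 libraries, and 5.71 against DMSO 1 and 2 alone.

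Of 6 measured helicases, DHX8 and DDX23 were lower and 4 were not called without DMSO 1 and 2 (all genes 26.4% lower). DHX8, which releases the spliced mRNA, had 30.9, 33.5, 33.5 and 31.9 CPM with SY-351, against 8.60, 2.76, 118.5 and 121 CPM with DMSO. Again the SY-351 libraries stood between the DMSO pairs. The log2 fold was -1.46 ± 0.15 (adjusted p = 5.45e-20, edgeR) without DMSO 1 and 2, and -0.62 ± 0.83 (adjusted p = 0.632) with them. DDX23, the helicase that displaces U1 from the 5' splice site, had a log2 fold of -1.42 ± 0.15 (adjusted p = 8.24e-19) without DMSO 1 and 2, -0.47 (adjusted p = 0.796) with 8 libraries, and 3.88 against DMSO 1 and 2 alone. DDX46, which acts on U2 before it binds the branch point, had 103, 104, 108 and 93.8 CPM with SY-351, against 8.67, 2.498, 118.6 and 122 CPM with DMSO. It was not called, with log2 folds of 1.03 ± 0.85 (adjusted p = 0.434) with 8 libraries and 0.18 ± 0.16 (adjusted p = 0.385) without DMSO 1 and 2. AQR, DHX15 and DHX38 were not called either, with log2 folds of -0.24, -0.06 and -0.19 without DMSO 1 and 2.

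Summed over classes, the 41 members took 0.573% to 0.624% of a library's counts with SY-351, against 0.697% and 0.676% in DMSO 1 and 2 and 0.858% and 0.848% in DMSO 3 and 4. The Sm ring took 0.126% to 0.142% with SY-351, against 0.066% and 0.0516% in DMSO 1 and 2 and 0.115% and 0.116% in DMSO 3 and 4. The U2 snRNP took 0.133% to 0.145% with SY-351, against 0.224% and 0.216% in DMSO 1 and 2 and 0.261% and 0.258% in DMSO 3 and 4. The 4 members that were higher in all 8 alternatives had 3 to 5 introns and mature transcripts of 702 to 1389 nt. The 13 that were lower in all 8 had 5 to 25 introns and mature transcripts of 1597 to 9720 nt. All 41 members had 0 to 44 introns and 625 to 9720 nt. Short transcripts were not always higher. SNRPG (625 nt, 3 introns), SF3B5 (693 nt, 0 introns) and SNRPE (942 nt, 4 introns) were not called without DMSO 1 and 2. Over all 41 members, the log2 fold without DMSO 1 and 2 correlated with mature length at a Spearman rho of -0.40 and with intron number at -0.31, given as descriptions across genes of the same libraries, and over 15172 genes the rho with mature length was -0.12.

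Other proteins of the splicing pathway were counted from lists that do not overlap the members, against the same background of 13.6% lower and 2.91% higher with 8 libraries, and 26.4% lower and 21.9% higher without DMSO 1 and 2. Of 46 tested other spliceosome proteins, 8 were lower and 0 higher with 8 libraries, and without DMSO 1 and 2 the counts were 20 and 10 (median log2 fold -0.23). The 3 with the smallest adjusted p with 8 libraries were BUD13 (-2.30, adjusted p = 0.00291), GPKOW (-3.56, adjusted p = 0.00297) and SART3 (-2.09, adjusted p = 0.00465). SART3, which recycles U4 and U6 into a new di-snRNP, had 19.6, 21.9, 20.5 and 18.7 CPM with SY-351, against 45.8, 39.6, 137 and 139 CPM with DMSO. Every SY-351 library lay below every DMSO library.

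The list of snRNP assembly factors includes proteins that load the Sm ring onto the RNA. Of 14 tested, 6 were lower and 0 higher with 8 libraries (all genes 13.6% and 2.91%). Without DMSO 1 and 2 the counts were 11 and 2 (all genes 26.4% and 21.9%), with a median log2 fold of -1.10. DDX20, the helicase of the SMN complex, had 2.09, 2.44, 2.48 and 2.08 CPM with SY-351, against 27.5, 37.2, 46.1 and 45.6 CPM with DMSO. The groups did not overlap, and the log2 fold was -4.24 (adjusted p = 0.00288, edgeR) with 8 libraries and -3.91 (adjusted p = 8.70e-111) without DMSO 1 and 2. GEMIN4 and GEMIN5 of the same complex had log2 folds of -2.85 and -2.77 with 8 libraries (adjusted p = 0.00288 each). Of 10 proteins of the minor spliceosome, 2 were lower and 0 higher with 8 libraries (PDCD7 at -2.83 and ARMC7 at -2.14, adjusted p = 0.0241 each), and 2 were lower and 3 higher without DMSO 1 and 2. Of 5 exon junction complex proteins, 1 was lower with 8 libraries (EIF4A3, log2 fold -2.66, adjusted p = 0.00324), and 3 were lower and 0 higher without DMSO 1 and 2.

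The authors' deposited table of splicing compares the inclusion of junctions between SY-351 and control. It lists a local splicing variation, a set of junctions that share an exon, with the expected share of each junction and the probability that this share differed by at least 0.20. No value per sample is given there, so no SD can be stated. Of 6716 variations in 3700 genes, 55.7% had a junction past a probability of 0.95, and 64.2% of the genes had such a variation. Members had 24 variations there, in 13 genes of the authors' deposited table, and 8 variations in 6 members were past 0.95. All classes were represented except the Sm ring and the Prp19 complex, which had 0 entries. The 6 of 13 members were at a lower share than the genes of the table as a whole. Each of the 24 member variations had a junction whose share differed by at least 0.20. The table may therefore hold only variations chosen as changed. These shares are not rates among all variations measured, and absence of a class from the table is not a result. DHX8 lay just outside, at a probability that rounds to 0.95, and DDX46 was next at 0.914, while PRPF3 lay just inside at 0.957.

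In the authors' deposited table, the junction that was highest in control was lower with SY-351 in 23 of 24 member variations, against 89.4% of all 6716. A junction picked as the highest in control has more room to fall than to rise. This count is therefore no test of a direction. The remaining case was SF3B1, where an annotated junction had 87.6% with SY-351 and 67.5% in control while the retained intron beside it had 10.4% with SY-351 and 31.4% in control. Junctions of members that differed by at least 0.1 had 21 lower and 24 higher entries with SY-351 in that table, some listed from both ends, which left 20 lower and 20 higher distinct junctions by gene and intron length. Of the lower ones 0 were marked as absent from the authors' annotation, and of the higher ones 8 were. By intron length within the same gene, 18 of the 20 lower and 11 of the 20 higher junctions matched an intron of GENCODE v29, in a protein-coding transcript for all 18 and for 6 of the 11. The 3 entries of a retained intron that differed by that much, in SNRPA and SF3B1, were lower with SY-351.

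The exon junctions involved are shown for the 6 members past 0.95, each as the last 15 bases of the upstream exon and, in capitals, the first 15 bases of the downstream exon, from GENCODE v29 transcripts on GRCh38. The coordinates given with them below are those of the intron in GENCODE, matched by length, since the splicing table uses another build. The first 7 joined exons less often with SY-351 in the authors' deposited table and the last 2 more often.
AQR exons 2 and 3: ccttttgatataaagGTTATTGAAGATATA
AQR exons 31 and 32: ggaagaccaaacaagGTGACAACTGTTGAT
CWC22 exons 8 and 9: attaaccaaaatgtgGCACACGAAGTATTA
DHX16 exons 9 and 10: cctggcgagttacagCGTGGTGATGGTGGA
PRPF3 exons 12 and 13: catatctgtatatagAGTTCGAAATTTGAG
PRPF38A exons 2 and 3: aaatgaagatttcaaGTATGTCCGCATGCT
U2AF1 usual junction: ctgacggctcacactGTGCCGTGAGCGATG
U2AF1 alternative junction: ctgacggctcacactACCATTGCCCTCTTG
PRPF38A alternative junction: agccatggagttaagAAACGCTATGTATTA

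U2AF1, the subunit of U2AF that reads the AG of the 3' splice site, has a pair of alternative exons of 67 nt each, at chr21:43101366-43101432 and chr21:43100453-43100519 on the minus strand, which are identical at 44 of 67 positions (65.7%). In the authors' deposited table the junction from the first of these exons past the second (intron chr21:43095744-43101365) had 51.3% with SY-351 and 93.9% in control. The junction that joins both of these exons (intron chr21:43100520-43101365) had 48.7% with SY-351 and 6.10% in control, a difference of 0.429 at a probability of 1. Their joined length of 134 nt leaves a remainder of 2 when divided by 3. The GENCODE transcripts with that junction include ones tagged as protein-coding, as subject to nonsense-mediated decay and as holding a retained intron.

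AQR is a helicase that binds the intron upstream of the branch point. In the authors' deposited table its junction of exons 31 and 32 (intron chr15:34867610-34870751, minus strand) had 48.0% with SY-351 and 99.8% in control, a difference of -0.506. Its junction of exons 2 and 3 (intron chr15:34960815-34964233) had 59.3% with SY-351 and 97.8% in control. A junction from the same exon end to an unannotated site 251 nt downstream had 40.2% with SY-351 and 1.10% in control. By its counts AQR was not called under TMM scaling. Without DMSO 1 and 2 it was lower under total count scaling (log2 fold -0.67, adjusted p = 1.02e-06, edgeR).

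CWC22 and DHX16 had the same form of change. In the authors' deposited table the CWC22 junction of exons 8 and 9 (intron chr2:179971077-179973192, minus strand) had 65.2% with SY-351 and 98.9% in control, and one from the same exon end to an unannotated site 187 nt downstream had 34.1% with SY-351 and 0.1% in control. The DHX16 junction of exons 9 and 10 (intron chr6:30660243-30662626, minus strand) had 65.5% with SY-351 and 95.2% in control in that table, and one to an unannotated site 195 nt downstream had 34.5% with SY-351 and 4.80% in control. DHX16 is a helicase that acts just before the first catalytic step. In these 3 genes the new site lay within the first 251 nt of an intron of 2116 to 3419 nt.

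For PRPF3 the largest difference in the authors' deposited table was a junction over an intron of 4229 nt, which had 33.3% with SY-351 and 82.8% in control, in exchange for one over 2187 nt with the same downstream end, which had 66.2% with SY-351 and 16% in control, a difference of 0.508. Neither length matched a GENCODE intron of the gene. The PRPF3 junction of exons 12 and 13 (intron chr1:150344548-150346017, plus strand) had 72.6% with SY-351 and 99% in control in the same table. For PRPF38A the junction of exons 2 and 3 (intron chr1:52405840-52408568, plus strand) had 65.8% with SY-351 and 93.8% in control. In its place a junction that starts 126 nt earlier within exon 2 and ends at exon 5 (intron chr1:52405714-52412513) had 33.7% with SY-351 and 5.90% in control. GENCODE has that junction in a processed transcript without a coding part.

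Of the 4 U1 and U2 genes with variations in the authors' deposited table (SNRNP70, SNRPA, SNRPA1 and SF3B1), 0 were past 0.95. SNRNP70 had a junction at 35.5% with SY-351 and 11.4% in control in that table. GENCODE places this junction in protein-coding transcripts and in ones subject to nonsense-mediated decay. An intron of SNRPA was retained at 58.2% with SY-351 and 83.8% in control, at a probability of 0.884. SNRNP40, lower by its counts, had a junction of exons 4 and 5 at 77.0% with SY-351 and 100% in control in the same table, at a probability of 0.593. Of the 6 members past 0.95, 4 had counts. Without DMSO 1 and 2, CWC22 and PRPF3 were called lower, and AQR and PRPF38A were not called under TMM scaling. Under total count scaling AQR and PRPF38A were lower too (PRPF38A log2 fold -0.62, adjusted p = 1.57e-06, edgeR).

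**Figure D5:**
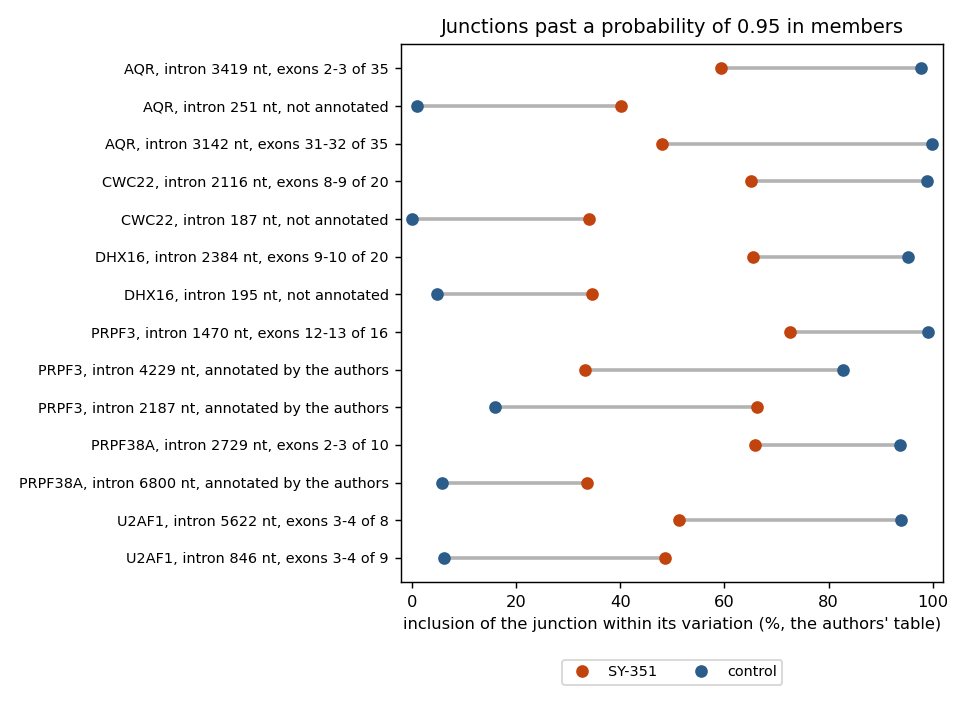
Inclusion (%, x axis) of each junction of a member that was past a probability of 0.95 in the authors' deposited table, with SY-351 and control as the 2 ends of a grey line. Rows name the gene, the intron length and the exons joined in GENCODE, or say that the junction was not annotated or was annotated by the authors without such a match. Junctions near 100% in control lie further left with SY-351, and those near 0% lie further right.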

How the data were processed

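The authors deposited whole-number read counts, made with featureCounts 1.6.2 at strand setting 1 over 1 interval per RefSeq transcript, introns included, per the file headers. GRCh38 and DESeq2 stand in the submitters' processing notes. The labels name an Illumina TruSeq RNA kit and not whether it kept strand, so reads of SNRPF, SF3A1, EFTUD2, DHX8 and DHX38 may mix with antisense neighbours. No source used here gives how the 2 technical repeats were joined. Of 18093 rows, 17867 were named by a RefSeq gene table and 137 by GENCODE v29, 444 had 0 counts, and 0 count columns were left unused. The tests used edgeR 4.0.16 under R 4.3.3, with TMM scaling and filterByExpr (robust quasi-likelihood, two-sided, Benjamini-Hochberg adjusted p below 0.05 over all genes), group as the only term. SE is the log2 fold over the square root of F. Printed CPM are scaled to library totals alone. Alternatives were total scaling, DESeq2 1.42.0 and its size factors, no filter, a replicate block and leaving out libraries.

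The deposited splicing table holds the authors' own comparison, whose column names, per the file headers, are those that Voila writes for MAJIQ (inclusion, difference and probability, a score of other kind than counts). Its difference was turned to SY-351 minus control, a sign that matched both inclusion columns for 100% of the 17265 entries with inclusions at least 0.05 apart. Its folder is named as free of outliers, and no source used here gives the samples behind it.

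The members, their classes, the lists and the setting without DMSO 1 and 2 were chosen with earlier results of these data known. Values per sample were given for members called with 8 libraries and for the member of each class with the smallest adjusted p or, without DMSO 1 and 2, the largest fold. SF3B3, SF3B6 and U2AF2 were added after their values were seen. PUF60, LSM2, PRPF4B, CWC25, ELANE, PRTN3 and AZU1 of the lists were not analysed here.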

Additional observations from a re-analysis of the deposited data

Results flagged for a closer look

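Of 82 sets of 4 libraries (41 members in each group), 3 had 1 library far from the other 3 by Dixon's test at the 95% level, and chance flags about 1 in 20 such sets. SNRPE had 44.6 CPM in SY-351 1, against 39.8 to 40.1 CPM for SY-351 2 to 4. AQR had 77.1 CPM in SY-351 4, against 82.4 to 82.9 CPM for SY-351 1 to 3. PRPF19 had 181 CPM in DMSO 1, against 294 to 316.5 CPM for DMSO 2 to 4. The split of the DMSO libraries into pairs is not of the form this test detects, and is described with the results.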

How the results depend on the processing

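With 8 libraries, 3 members were lower and 0 higher (all genes 13.6% and 2.91%). These counts became 8 and 0 with the DESeq2 test, and 5 and 0 with total count scaling (all genes 16.1% and 1.39%). Without DMSO 1 and 2 they were 17 and 7 (all genes 26.4% and 21.9%). Against DMSO 1 and 2 alone they were 13 and 26, with a median log2 fold of 3.88 (all genes 38.4% lower, 40.8% higher, median 0.19). Leaving out 1 of the 8 libraries gave 1 to 9 lower, 0 higher. The replicate block gave 0 lower and 0 higher. Same-numbered libraries deviated from their group means together at r = -0.176 to 0.00641. The split of the DMSO libraries enters these deviations, so this r cannot decide whether the numbers pair libraries. Against the fit with 8 libraries, the direction turned for 17 of 41 members without DMSO 1 and 2, for 8 against DMSO 1 and 2 alone, for 7 under the replicate block and for 8 in at least 1 fit that leaves out 1 library. Among the 14 members with values per sample these were SNRNP70 (0.20 without DMSO 1 and 2), PRPF4, CDC5L, CWC22 and DHX8 (0.91, 3.53, 5.43 and 1.71 against DMSO 1 and 2 alone), CDC5L, CWC22 and DHX8 (0.85, 2.14 and 0.24 under the block), and CWC22 (-0.65 to 0.59) and DHX8 (-1.0 to 0.06) on leaving out 1 library. Without DMSO 1 and 2, total count scaling gave 33 lower and 4 higher and a median of -0.65, and turned 7 members, among them SNRNP70 (-0.22), U2AF2 (-0.01) and DDX46 (-0.24). There, leaving out 1 library gave 14 to 28 lower, 4 to 15 higher and medians of -0.44 to 0.02, and turned 13 members, of which 0 were called with all 6 libraries, among them PRPF19 (-0.27 to 0.08) and DDX46 (-0.04 to 0.46). These 6 fits were added after seeing the data, and a lone DMSO library was assumed to vary like the others. The cause of these changes was not tested. At a probability of 0.99, 3 members had a splicing variation, and at 0.9, 8. Genes of the other spliceosome list called lower and higher were 8 and 0 with 8 libraries and 20 and 10 without DMSO 1 and 2. The level of members near 0 CPM in DMSO 1 and 2 is limited by depth.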
